A study of Mus musculus with 8 samples.

Results

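ATP-binding cassette (ABC) genes were followed in the ileum of mice whose strain field names a doxycycline-inducible Tnk1 transgene, 24 hours after an injection of doxycycline or of saline. The members are all genes whose array name is Abc, a subfamily letter a to g and a digit, with 1 probe per gene, the probe with the highest mean log2 signal over the 8 arrays. This gave 50 genes, measured by 70 probes, out of 35715 gene names on the array: 16 of subfamily A, 10 of B, 10 of C, 4 of D, 1 of E, 3 of F and 6 of G. Of these, 38 could be tested. The 4 doxycycline arrays came from female mice labelled Rosa26rtTA/+, Hprt Myc-Tnk1tg that received 50 µg of doxycycline per g of body weight in 100 µl into the peritoneum. The 4 saline arrays came from female mice whose strain field names the same alleles, and that received 100 µl of 0.9% NaCl. The source names call the saline samples WT, while the strain field gives them the transgene. Ages are not stated, nor is the cell type in which the transactivator acts. Neither group received doxycycline without the transgene, so effects of the drug and of Tnk1, a non-receptor tyrosine kinase, cannot be told apart. If the saline mice lacked the transgene, as the WT label would mean, a difference in genotype cannot be told apart from them either, for any gene. The labels do not say whether every array holds its own animal, and p-values here reflect only how much these 8 samples vary.

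ABC proteins bind and hydrolyse ATP at a pair of nucleotide-binding domains, and most use that energy to move a substrate across a membrane. In the small intestine ABCG5 and ABCG8 form a heterodimer that returns plant sterols and cholesterol to the lumen, ABCA1 loads cholesterol onto apolipoprotein A-I at the basolateral side, and ABCB1 and ABCG2 export drugs and xenobiotics through the brush border. Other members work inside cells, in mitochondria, lysosomes and peroxisomes. The ABCE and ABCF proteins have no transmembrane domains and act on ribosomes.

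RNA was hybridised in 1 colour to 8 arrays on 1 slide. The doxycycline arrays lay in row 1 and the saline arrays in row 2, which leaves the position on the slide and the treatment confounded (they cannot be told apart). A larger share of spots was well above background on the doxycycline arrays (56.07% to 58.26%) than on the saline arrays (41.28% to 44.69%). Saline arrays 2 and 4 had been set apart in earlier work on these data, so results are also given without them. Levels are log2 signals relative to each array's 75th percentile, and they compare arrays for a gene, never a gene with another gene. Where the summed signal of a gene list is given, it adds linear signals over the list's genes, so the brightest probes weigh most in it. As a check of the induction, the 5′-side Tnk1 probe averaged 0.64 ± 0.23 on doxycycline arrays and -2.15 ± 0.40 on saline arrays (SD, n = 4 each), a 6.92-fold difference (limma, adjusted p = 4.16e-04). The Tnk1 probe nearer the 3′ end is the brighter, which the rule of 1 probe per gene picks, and it went the other way. It averaged 2.13 ± 0.23 on doxycycline arrays and 2.58 ± 0.26 on saline arrays, and was not called (log2 difference -0.45, limma adjusted p = 0.143). Hprt, the locus named in the transgene label, averaged 4.34 on doxycycline arrays and -1.67 on saline arrays, 64.6-fold higher. For Hprt, a difference in alleles between the groups and an effect of the treatment cannot be told apart. All 8 absorptive enterocyte markers were tested, and limma called 0 of them (2 higher at an unadjusted p of 0.05). This compares the groups and is no test of the ileal label. Among other cell types, 5 of 6 goblet, 4 of 5 stem, 3 of 4 enteroendocrine and 2 of 3 tuft cell markers fell, and 3 of 4 neutrophil markers rose, where limma called 5.94% of all genes higher and 7.91% lower. Of these neutrophil markers, S100a8 and Camp passed the filter through the doxycycline arrays alone, so their saline levels are only bounds. S100a8 was at least 3.58-fold higher (limma, adjusted p = 0.0264), and Camp was not called. The groups overlapped for S100a8 and S100a9, and not for Ltf. With the enterocyte list, the Paneth, T cell, B cell, smooth muscle, neuronal, adipocyte and exocrine pancreas lists held no call in 42 tested genes (4 higher and 1 lower at an unadjusted p of 0.05). Of the remaining lists, 1 of 5 fibroblast, 1 of 5 pericyte and 2 of 6 endothelial markers rose, 1 of 3 mast cell and 2 of 4 hepatocyte markers fell, and of 6 macrophage markers 2 rose and 1 fell. In bulk tissue, fewer cells of a type and less RNA per cell cannot be told apart.

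The sequences upstream of Abcg5, Abcg8, Abca1 and Abcc4 are shown because motifs of factors known to act on sterol, drug or intestinal genes were searched in them. They are RefSeq's, build GRCm38.p6, printed 5′ to 3′ on the named strand, and windows were at hand for 38 of the 50 genes and 11 of the 14 called ones. Abcg5 and Abcg8 are transcribed away from each other, and the 109 bases between their starts are chr17:84683012-84683120, plus strand. Capitals mark matches on either strand to AGATAA, a site of GATA factors, which are present in small intestinal epithelium.
Abcg5-Abcg8 interval: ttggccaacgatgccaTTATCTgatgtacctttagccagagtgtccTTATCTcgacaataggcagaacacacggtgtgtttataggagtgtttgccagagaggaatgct
Abca1 is a target of the liver X receptors (LXR), which bind direct repeats. The window is chr4:53159896-53160145, minus strand, and capitals mark a match to a DR4-like repeat (GGTNA and, 5 bases on, GGTCA) and an E-box, CACGTG.
Abca1 upstream 1: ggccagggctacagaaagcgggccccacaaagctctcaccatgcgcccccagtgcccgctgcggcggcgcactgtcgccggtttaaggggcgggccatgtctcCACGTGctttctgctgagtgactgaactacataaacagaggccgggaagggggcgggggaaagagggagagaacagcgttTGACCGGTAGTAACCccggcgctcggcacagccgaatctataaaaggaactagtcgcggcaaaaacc
Abcc4 has 2 listed starts, and the windows before them are chr14:118676932-118677181 and chr14:118706220-118706469, minus strand. Capitals mark the antioxidant response core TGACNNNGC, the binding sequence of NRF2, and in the second window also an E-box.
Abcc4 upstream 1: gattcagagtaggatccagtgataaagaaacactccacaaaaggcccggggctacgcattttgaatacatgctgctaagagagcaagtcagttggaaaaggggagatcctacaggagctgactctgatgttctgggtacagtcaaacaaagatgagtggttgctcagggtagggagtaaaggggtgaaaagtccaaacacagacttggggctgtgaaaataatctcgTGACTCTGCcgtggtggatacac
Abcc4 upstream 2: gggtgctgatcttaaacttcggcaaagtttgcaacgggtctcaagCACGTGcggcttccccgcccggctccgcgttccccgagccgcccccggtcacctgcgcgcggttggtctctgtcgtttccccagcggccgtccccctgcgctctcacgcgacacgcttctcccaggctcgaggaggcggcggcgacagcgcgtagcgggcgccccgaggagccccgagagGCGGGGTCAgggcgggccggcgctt

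Each motif was searched on both strands of the 250 bases before every start, and the searched motifs do not overlap in the windows shown. Of 32851 promoters, 9.99% hold the GATA site, 0.177% the DR4-like repeat, 6.02% the E-box and 10.2% the antioxidant response core. These shares are per start, while an ABC gene counts as matched where any of its starts matched. Among the called genes, Abcg2, Abcc10, Abcg8, Abcc4 and Abcf2 have more than 1 start. The gene counts and the shares are therefore not like for like. Of the 38 ABC genes with a window, Abca1 was the only match to the DR4-like repeat. The nuclear receptor hexamer AGGTCA, in 14.0% of promoters, was matched in 3 of the 8 called-lower genes with a window (Abcb6, Abcc10 and Abcg2) in 0 of the 3 called-higher genes, in 2 of the 17 tested and not called and in 0 of the 10 not tested. The antioxidant response core was matched in Abcc4, in the called-lower Abcc10 and in Abcc2, which was not called. The GATA site was matched in Abcg5 and Abcg8, in part by the same sites in their shared interval. It was also matched in the called-higher Abcf2 and 2 of the 10 genes not tested. The E-box was matched in Abca1 and Abcc4, in 0 of the 8 called-lower genes, in 2 of the 17 not called and in 1 of the 10 not tested. A match is a description of the letters and not a site of binding.

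More ABC genes fell than rose. At an adjusted p of 0.05 over all 21342 genes tested, 4 of the 38 tested members rose (Abca1, Abcc1, Abcc4 and Abcf2, 10.5%) against 5.94% of all genes, and 10 fell (Abca3, Abcb6, Abcb9, Abcb10, Abcc6, Abcc10, Abcd4, Abcg2, Abcg5 and Abcg8, 26.3%) against 7.91% of all genes. In either direction, 13.9% of all genes were called. The median difference, doxycycline minus saline, was -0.29 on the log2 scale over the tested members, beside 0.02 over all genes tested, with 15 members above 0 and 23 below. This median was -0.17 with the mean of a gene's measured probes, -0.47 over members well above background on all arrays and -0.58 with no filter on dim probes. Taken on each array relative to the members' saline means, the median was -0.07, -0.33, -0.33 and -0.45 on doxycycline arrays. On saline arrays it was 0.001, 0.06, 0.05 and -0.15. Doxycycline array 1 lay above saline array 4, so the groups overlapped in this median. At an unadjusted p of 0.05, 8 members were higher and 14 lower, where 14.6% and 16.8% of all genes were. The arrays of the 2 groups did not overlap for 5 members that were higher and 10 that were lower, beside 8.76% and 13% of all genes. The calls depended on single arrays, among all genes as among ABC genes. Leaving out each array in turn, ABC counts ranged over 1 to 6 higher and 5 to 12 lower. Counts of all genes ranged over 647 to 1539 higher and 729 to 1871 lower, beside 1268 and 1689 on all arrays. The ABC counts were 2 higher and 7 lower without doxycycline array 2, 2 and 5 without doxycycline array 3, and 2 and 6 without doxycycline array 4. They were 1 and 5 without saline array 1, and 2 and 5 without saline array 3. Without saline arrays 2 and 4 together they were 4 and 8, of which 2 and 7 were among the members called on all arrays.

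By subfamily, ABCG had the lowest median difference, -0.87, with 3 of 5 tested members lower. ABCA had a median of -0.04 with 1 of 8 higher and 1 of 8 lower, ABCB -0.23 with 3 of 9 lower, ABCC -0.39 with 2 of 9 higher and 2 of 9 lower, ABCD -0.52 with 1 of 3 lower, and ABCF 0.16 with 1 of 3 higher. The widest span was in ABCC, where the differences ran between -2.49 for Abcc6 and 1.33 for Abcc4. The filter bears on these counts: 32 members were well above background on all 8 arrays, 6 on 4 to 7 arrays, 3 on 1 to 3 arrays and 9 on none, and the 38 measured on at least 4 arrays were tested. Abca8a and Abcb11 passed through the doxycycline arrays alone, so their saline signals are only bounds. Without these 2 the median was -0.11 over 7 ABCA members, -0.42 over 8 ABCB members and -0.37 over all 36, a setting chosen after seeing the data. Neither of the 2 was called, so leaving them out could not change a count of calls.

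**Figure D1:**
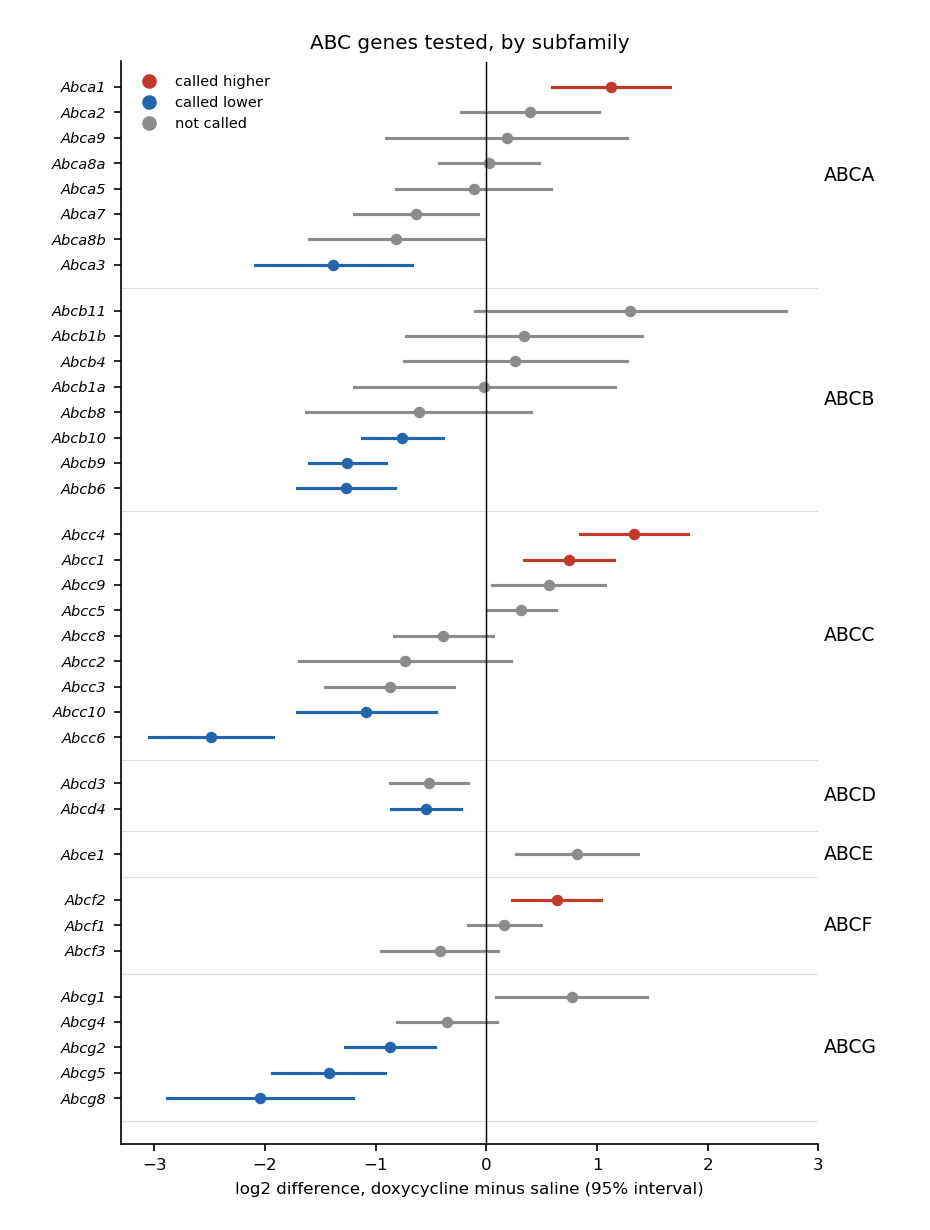
Log2 difference (doxycycline minus saline) of 36 tested ABC genes, grouped by subfamily, with 95% intervals from limma. Red marks the 4 genes called higher, blue the 10 called lower and grey the 22 not called. The largest difference is that of Abcc6, at -2.49, Abca8a and Abcb11 have only a bound on saline arrays, and 3 of the 5 ABCG genes lie below 0 with a call.

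Both subunits of the sterol exporter fell. Abcg5 (probe at chr17:85057593-85057652, mm9, minus strand) read 4.34, 3.67, 3.70 and 3.38 on the doxycycline arrays, against 5.14, 5.48, 5.24 and 4.93 on the saline arrays. Every doxycycline array was below every saline array, and the level was 2.68-fold lower (log2 difference -1.42 ± 0.23 SE, limma adjusted p = 0.00511). Its partner Abcg8 (chr17:85098745-85098804, plus strand) read -2.47, -2.68, -4.19 and -3.35 on doxycycline arrays, against -0.74, -1.05, -1.11 and -1.62 on saline arrays. The groups again did not overlap, and the difference of -2.04 ± 0.37 (4.12-fold, adjusted p = 0.00936) was -1.15 after normexp background correction and -1.42 with a common floor, still called. Both genes share the interval printed above.

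Abca1 went the other way. Its probe (chr4:53043944-53044003, minus strand) gave 0.89, 1.20, 1.12 and 1.34 on doxycycline arrays and -0.13, 0.53, 0.18 and -0.54 on saline arrays, without overlap, a 2.18-fold rise (log2 difference 1.13 ± 0.24, adjusted p = 0.0167). The saline arrays were spread more widely than the doxycycline arrays, and without saline array 1 the difference was 1.08 with an adjusted p of 0.0532. Abcg1, which passes cholesterol to high-density lipoprotein, read 0.89, 1.39, 0.86 and 1.43 on doxycycline arrays, against 0.37, 1.21, -0.10 and 0.00 on saline arrays. Saline array 2 lay within the doxycycline range, and Abcg1 was not called (log2 difference 0.77, adjusted p = 0.118; 0.0208 without saline array 2).

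Of the 12 genes of sterol absorption and LXR action, all tested, 1 rose and 1 fell, with a median of -0.28. Apob, the structural protein of chylomicrons, rose 2.47-fold (adjusted p = 0.032), and Nr1h3, which encodes LXR alpha, fell 2.31-fold (adjusted p = 0.0165). The LXR targets Srebf1 and Mylip had log2 differences of -1.56 and 1.43 and were not called (adjusted p = 0.0586 and 0.0696). Npc1l1, the apical cholesterol importer, was at -0.65 (adjusted p = 0.154). Macrophages express Abca1 and Abcg1 too: 2 of 6 tested macrophage markers rose (Mrc1 and C1qb), 1 fell (Adgre1), and the log2 of the list's summed signal was 4.79 to 5.69 on doxycycline arrays and 3.93 to 4.95 on saline arrays. Its part in the rise of Abca1 was not tested.

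Among the exporters of the brush border, Abcg2, the breast cancer resistance protein, fell. Its levels were 6.14, 5.81, 5.57 and 5.48 on doxycycline arrays, against 6.74, 6.69, 6.62 and 6.43 on saline arrays (chr6:58642312-58642371, plus strand). No doxycycline array reached the lowest saline array, and the fall was 1.83-fold (log2 difference -0.87 ± 0.18, adjusted p = 0.0159). The call was lost without doxycycline array 3, saline array 1 or saline array 3, with adjusted p up to 0.0542. Abcc2 (MRP2), which exports conjugated drugs and bilirubin, read 0.43, -0.42, 0.10 and -0.70 on doxycycline arrays, against 0.34, 1.33, 1.19 and -0.51 on saline arrays. The ranges overlapped and it was not called (log2 difference -0.73, adjusted p = 0.27).

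The P-glycoprotein genes Abcb1a and Abcb1b and the phosphatidylcholine flippase gene Abcb4 are neighbours on chromosome 5, and none was called. Abcb1a read 4.30, 3.34, 5.92 and 4.60 on doxycycline arrays, against 4.52, 4.93, 5.09 and 3.68 on saline arrays, a log2 difference of -0.02 with a 95% interval between -1.20 and 1.16. Abcb1b read 2.19, 1.30, 3.22 and 1.93 on doxycycline arrays, against 1.89, 2.27, 2.42 and 0.71 on saline arrays, a difference of 0.34 with an interval between -0.73 and 1.40. Abcb4 read 3.94, 3.26, 5.07 and 3.73 on doxycycline arrays, against 3.79, 4.16, 4.28 and 2.72 on saline arrays, a difference of 0.26 with an interval between -0.75 and 1.27. In all 3 genes doxycycline array 3 was the highest and array 2 the lowest of its group, and saline array 3 was the highest and array 4 the lowest of its group. Abcb1a and Abcb1b are close paralogues, and whether their probes share transcripts was not tested. The intervals are too wide to show that the 3 genes stayed level.

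**Figure D2:**
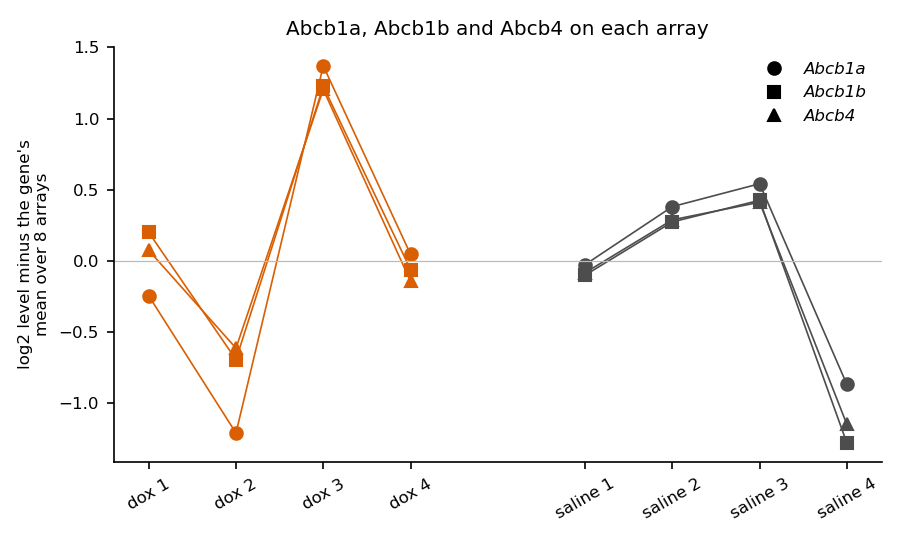
Log2 level of Abcb1a, Abcb1b and Abcb4 on each array, less the gene's own mean over the 8 arrays, with doxycycline arrays in orange and saline arrays in grey. Lines join the arrays of a group only to help the eye, since arrays have no order. The 3 genes are highest on doxycycline array 3, and they differ more between arrays of a group than between the groups.

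The exporters of the basolateral side and of many tissues were split. Abcc4 (MRP4), which exports cyclic nucleotides, prostaglandins and urate, had levels of 0.78, 1.06, 1.64 and 1.52 on doxycycline arrays, against -0.27, 0.02, -0.20 and 0.12 on saline arrays (chr14:118882104-118882163, minus strand). All doxycycline arrays were above all saline arrays, and the rise was 2.52-fold (log2 difference 1.33 ± 0.22, adjusted p = 0.00575). Abcc1 (MRP1), which exports leukotriene C and glutathione conjugates, had 0.28, 0.54, 0.64 and 0.87 on doxycycline arrays, against -0.25, -0.34, -0.19 and 0.13 on saline arrays (chr16:14474551-14474610, plus strand). The groups did not overlap and the rise was 1.68-fold (log2 difference 0.75 ± 0.18, adjusted p = 0.0268). Unlike Abcc4, whose call held in all 21 alternatives, Abcc1 was lost without doxycycline array 2, 3 or 4, without saline array 1, 2 or 3 and without saline arrays 2 and 4, with adjusted p up to 0.0812. Leukocytes express both genes: the log2 of the summed neutrophil markers was 2.13 to 2.97 on doxycycline arrays and -0.61 to 0.40 on saline arrays, with Ltf 7.11-fold higher. On saline arrays that sum includes S100a8, Camp, Ngp and Cxcr2, none of them well above background on any saline array, so it is in part a bound. The part of leukocytes in the rises of Abcc4 and Abcc1 was not tested.

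Abcc3 (MRP3), a basolateral exporter of bile acid and drug conjugates, read 3.99, 3.06, 3.41 and 3.16 on doxycycline arrays, against 4.12, 3.84, 4.51 and 4.64 on saline arrays. Doxycycline array 1 lay within the saline range, and the log2 difference of -0.87 was just outside the threshold (adjusted p = 0.0548). It was called in 6 of 21 alternatives, among them those without doxycycline array 1 and without saline array 2. Abcc5 (MRP5), a cyclic nucleotide exporter, was higher on every doxycycline array but by little (0.01 to 0.24 against -0.32 to -0.10, log2 difference 0.32, adjusted p = 0.151). A dimmer Abcc5 probe was called higher (log2 difference 1.01, adjusted p = 0.0361 over 28626 probes), and the other 2 were not called. Abcc10 (MRP7), an exporter of lipophilic drugs, read 1.71, 1.18, 1.02 and 0.27 on doxycycline arrays, against 2.16, 2.11, 2.29 and 1.96 on saline arrays (chr17:46440186-46440245, minus strand). It fell 2.12-fold without overlap (log2 difference -1.08 ± 0.28, adjusted p = 0.0339), although doxycycline array 4 was well below the others, and the call was lost in 9 of 21 alternatives, among them those without doxycycline array 2, 3 or 4 or saline array 1, 2 or 3 (adjusted p up to 0.0942).

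Abcc6 had the largest difference of all members. This gene, mutated in pseudoxanthoma elasticum and best known from hepatocytes, where its product brings about ATP release and so the formation of the mineralisation inhibitor pyrophosphate, read -2.11, -3.04, -2.64 and -2.33 on doxycycline arrays, against -0.06, 0.24, 0.17 and -0.51 on saline arrays (chr7:53231864-53231923, minus strand). The highest doxycycline array was far below the lowest saline array. Abcc6 fell 5.61-fold (95% interval 3.81 to 8.27, log2 difference -2.49 ± 0.25, adjusted p = 6.42e-04). The log2 difference was -1.62 after normexp background correction, and the call held in all 21 alternatives. Its second probe was well above background on 1 saline array alone and was not tested. Of 4 tested hepatocyte markers, Apoh and Serpina1a fell. Fgb had a log2 difference of 3.17 (adjusted p = 0.145) and Ttr of -0.09 (adjusted p = 0.946), neither called. Alb was not tested, and the log2 of the list's summed signal was 2.82 to 3.65 on doxycycline arrays and 3.95 to 5.73 on saline arrays. Its part in the fall of Abcc6 was not tested.

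The bile acid and drug-sensing partners of these exporters were not called. Abcb11, the bile salt export pump of hepatocytes, read -4.34, -2.67, -2.68 and -3.27 on doxycycline arrays, while all 4 saline arrays left the probe short of well above background, where its signals were -5.32, -4.87, -5.30 and -2.68. No fold is given for it. Limma called 0 of the 6 tested genes of the ileal bile acid route (1 higher at an unadjusted p of 0.05) and 0 of the 10 for drug sensing and uptake (1 higher and 3 lower). Slc51b, a subunit of the basolateral bile acid transporter, had a log2 difference of 0.66 (adjusted p = 0.0804), and Slc51a, of the same route, -0.31 (adjusted p = 0.446). Nr1i2, the pregnane X receptor, had -0.66 (adjusted p = 0.098), and Nfe2l2, which encodes NRF2, had -1.45 (adjusted p = 0.0666). Cftr, the chloride channel of subfamily C under another symbol, averaged -0.62 ± 0.71 on doxycycline arrays and 0.40 ± 0.15 on saline arrays (SD, n = 4 each) and was not called (adjusted p = 0.0648).

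The sulfonylurea receptors Abcc8 and Abcc9 are regulatory subunits of ATP-sensitive potassium channels, Abcc8 in endocrine and nerve cells and Abcc9 in muscle and vessels. Abcc9 read 1.45, 1.06, 0.74 and 0.87 on doxycycline arrays, against 0.68, 0.28, 0.08 and 0.83 on saline arrays, with overlap and no call (log2 difference 0.56, adjusted p = 0.126). The vascular pore gene Kcnj8 had a log2 difference of 0.91 (adjusted p = 0.0569). Abcc8 had -0.39 at its brighter probe (adjusted p = 0.213), and a second probe that shares most of its bases was called lower (-0.76, adjusted p = 0.0389 over 28626 probes). Enteroendocrine markers fell beside it, with a summed log2 signal of 5.06 to 6.01 on doxycycline arrays and 6.68 to 7.24 on saline arrays, and their part was not tested.

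**Figure D3:**
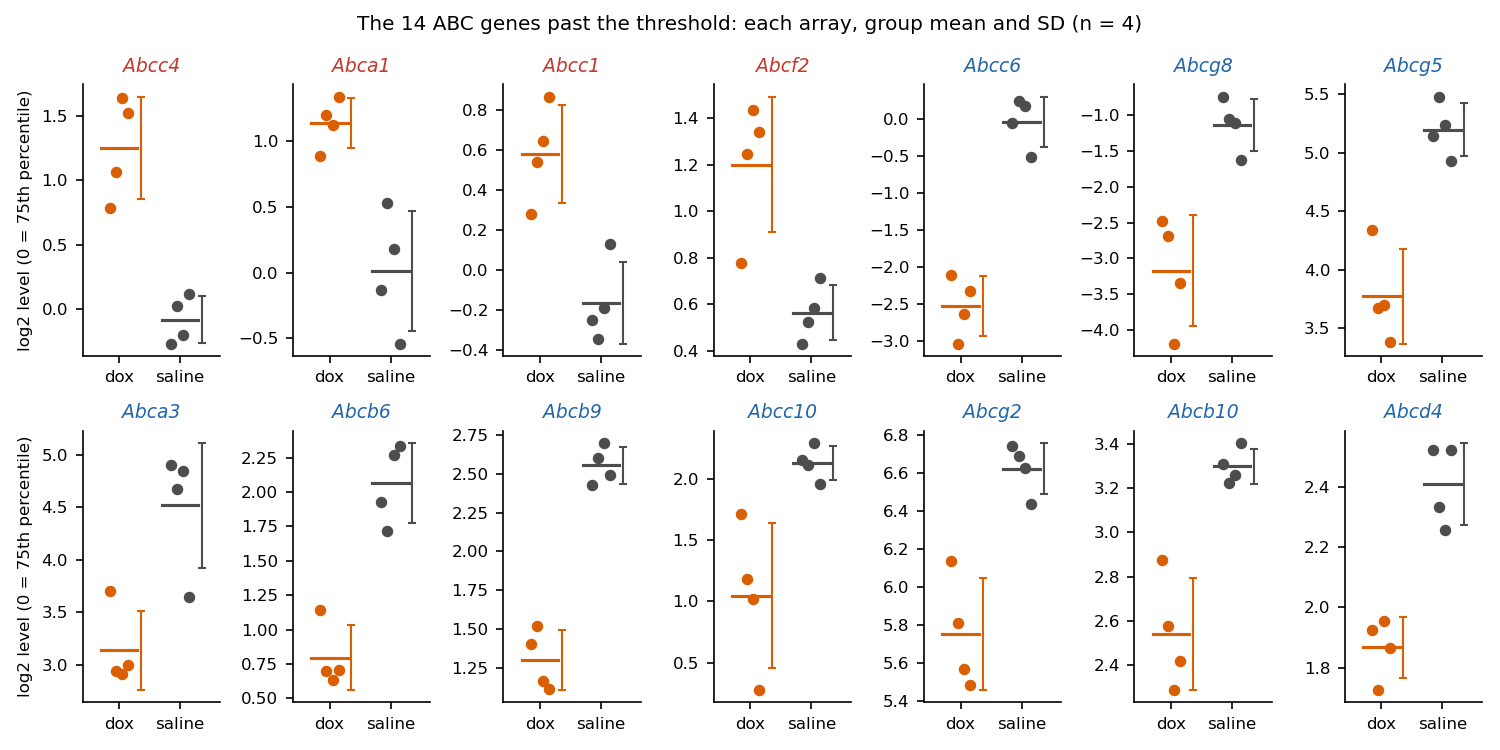
Log2 level (0 is the array's 75th percentile) of the 14 called ABC genes on each of the 4 doxycycline arrays (dox, orange) and 4 saline arrays (grey), with the group mean as a line and the SD as a bar, each panel on its own axis. Genes named in red were called higher and genes named in blue lower, and Abca3 is the only panel where the groups overlap.

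Of the ABCB genes that work inside cells, 3 fell. Abcb6, a porphyrin transporter of mitochondria and lysosomes, read 1.15, 0.70, 0.63 and 0.71 on doxycycline arrays, against 1.93, 1.72, 2.27 and 2.34 on saline arrays (chr1:75168430-75168489, minus strand). The fall was 2.41-fold without overlap (log2 difference -1.27 ± 0.20, adjusted p = 0.00453). Abcb10, an inner-membrane protein of mitochondria needed for haem synthesis in red cell precursors, read 2.87, 2.58, 2.29 and 2.42 on doxycycline arrays, against 3.31, 3.22, 3.26 and 3.40 on saline arrays (chr8:126476407-126476466, minus strand). It fell 1.69-fold without overlap (log2 difference -0.76 ± 0.16, adjusted p = 0.0184), and the call was lost in 6 of 21 alternatives (adjusted p up to 0.0681): with the replicate block, without doxycycline array 3 or 4, without saline array 1 or 3 and without saline arrays 2 and 4.

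Abcb9, a peptide transporter of lysosomes related to the antigen peptide transporter, read 1.40, 1.52, 1.17 and 1.11 on doxycycline arrays, against 2.43, 2.60, 2.70 and 2.50 on saline arrays (chr5:124511875-124511934, minus strand). This was a fall of 2.39-fold with little spread in either group (log2 difference -1.26 ± 0.15, adjusted p = 0.00154). Abcb8, of the mitochondrial inner membrane, had 0.22 on doxycycline array 4 and 2.02 to 2.45 on the other 3, against 2.16 to 2.55 on saline arrays (adjusted p = 0.391). Of 13 genes of mitochondrial haem and iron-sulfur assembly, Fech, the ferrochelatase that inserts iron, was the only call (1.58-fold lower, adjusted p = 0.0198), and the median was -0.17. The antigen peptide transporter genes Tap1 and Tap2 had log2 differences of 0.61 and -0.07 and were not called (adjusted p = 0.0653 and 0.82).

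Genes of the ABCD subfamily, transporters of fatty acyl-CoA into peroxisomes apart from ABCD4, included 1 call among 3 tested. Abcd3, the abundant peroxisomal membrane protein PMP70, read 5.14, 5.12, 5.24 and 5.24 on doxycycline arrays, against 5.96, 5.43, 5.80 and 5.62 on saline arrays. The groups did not overlap, yet the log2 difference of -0.52 did not pass (adjusted p = 0.0588), and it did in 7 alternatives. Abcd4, which with LMBD1 releases vitamin B12 from lysosomes, read 1.93, 1.73, 1.95 and 1.86 on doxycycline arrays, against 2.52, 2.34, 2.26 and 2.52 on saline arrays (chr12:85943772-85943831, minus strand). It fell 1.46-fold (log2 difference -0.54 ± 0.14, adjusted p = 0.0348), a call lost in 9 of 21 alternatives, among them those without doxycycline array 2, 3 or 4 or saline array 1, 2 or 3 (adjusted p up to 0.109). Of 12 genes of peroxisomal fatty acid oxidation and import, 0 rose (0 also at an unadjusted p of 0.05 in limma) and 5 fell (41.7%, beside 7.91% of all genes), with a median of -0.64: Ehhadh, the bifunctional enzyme, fell 2.11-fold (adjusted p = 0.00642), Slc27a2, a very long-chain acyl-CoA synthetase, 2.05-fold (adjusted p = 0.00791), Acot8, a thioesterase, 1.77-fold (adjusted p = 0.0216) and Acaa1a, a thiolase, 1.60-fold (adjusted p = 0.0299). Hsd17b4 was the other.

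**Figure D4:**
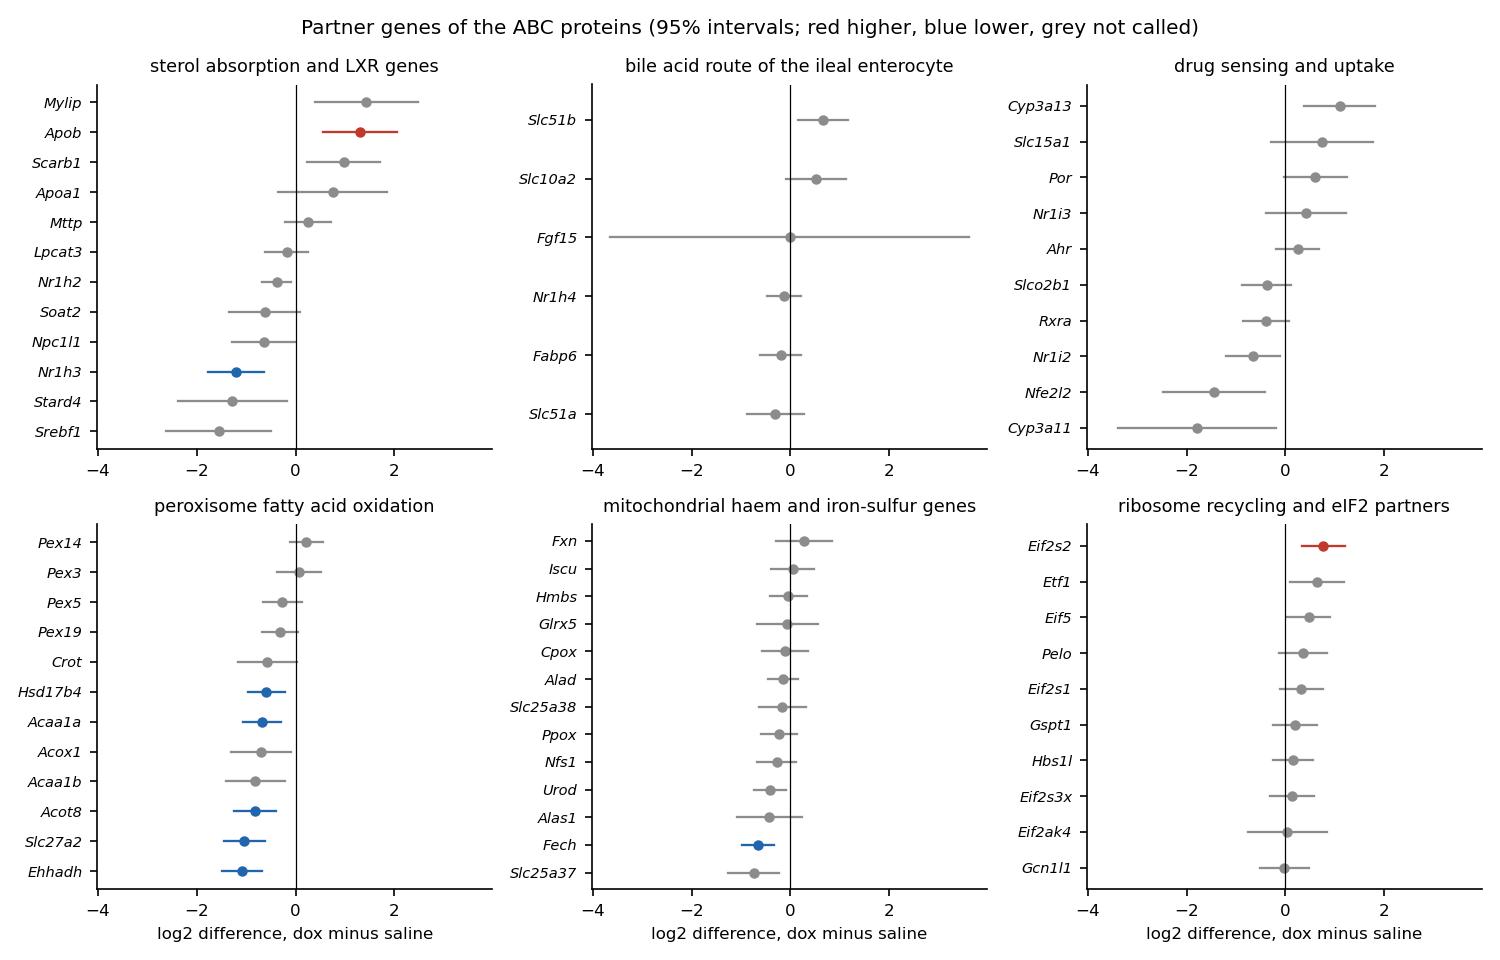
Log2 difference (doxycycline minus saline) with 95% intervals for the tested genes of 6 lists of partners of the ABC proteins. Of the peroxisome list 5 of 12 genes were called lower, of the sterol list Apob was called higher and Nr1h3 lower, and the bile acid and drug-sensing panels hold no call.

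Of the remaining ABCA genes only Abca3 was called. Abca3, the phospholipid transporter of lamellar bodies in lung, read 3.70, 2.94, 2.91 and 2.998 on doxycycline arrays, against 4.90, 4.68, 4.85 and 3.64 on saline arrays (chr17:24547066-24547125, plus strand). Saline array 4 fell just below doxycycline array 1, so the groups overlapped, and the 2.60-fold fall (log2 difference -1.38 ± 0.31, adjusted p = 0.0219) lost its call without doxycycline array 2, 3 or 4 or saline array 1 or 3, with adjusted p up to 0.0674. Goblet cell markers fell beside it, with a summed log2 signal of 8.84 to 9.49 on doxycycline arrays and 10.15 to 10.65 on saline arrays. Of 5 tested Paneth cell markers limma called 0, and 0 passed an unadjusted p of 0.05. The part of these cells in the fall of Abca3 was not tested. Abca7, which acts in lipid efflux and phagocytosis, had a difference of -0.63 (adjusted p = 0.12), and Abca8b of -0.81 (adjusted p = 0.149). Abca2, Abca5, Abca8a and Abca9 lay between -0.11 and 0.40 and were not well above background on every saline array. Of 7 partners in glycosphingolipid and phospholipid handling limma called 0 (4 higher and 1 lower at an unadjusted p of 0.05), among them Npc1 at 0.85 (adjusted p = 0.0566) and Apoe at 0.76 (adjusted p = 0.0592).

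The 12 members that were not tested were Abca4, Abca6, Abca12, Abca13, Abca14, Abca15, Abca16, Abca17, Abcb5, Abcc12, Abcd2 and Abcg3. Of these, Abca17 was well above background on 3 doxycycline arrays and no saline array, Abca12 on 1 array of each group and Abca14 on 1 saline array. The others were not well above background on any array. Abcg4, tested without saline array 1, whose spot was left out as an outlier, had a difference of -0.36 (adjusted p = 0.253).

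Of the members that act on ribosomes, Abcf2 rose. It read 0.78, 1.25, 1.44 and 1.34 on doxycycline arrays, against 0.43, 0.52, 0.59 and 0.71 on saline arrays (chr5:24072380-24072439, minus strand). The lowest doxycycline array was just above the highest saline array, and the rise was 1.56-fold (log2 difference 0.64 ± 0.18, adjusted p = 0.0449), lost in 8 of 21 alternatives, among them those without doxycycline array 2, 3 or 4 or saline array 1, 2 or 3 (adjusted p up to 0.123). Abce1, which splits ribosomes after termination, read 3.20, 3.34, 3.23 and 3.44 on doxycycline arrays, against 2.34, 2.04, 2.35 and 3.20 on saline arrays. Saline array 4 alone reached the doxycycline range. The log2 difference of 0.82 had an adjusted p of 0.0545 and was called in 9 of 21 alternatives, one of them the fit without saline array 4. Abcf1, a partner of initiation factor eIF2, read 4.29, 4.34, 4.31 and 4.29 on doxycycline arrays, against 4.14, 3.90, 4.17 and 4.37 on saline arrays, and was not called (log2 difference 0.16, adjusted p = 0.477). Abcf3 had a difference of -0.42 (adjusted p = 0.255). Of 10 tested partners in ribosome recycling and initiation, Eif2s2, the beta subunit of eIF2, was the only call (1.71-fold higher, adjusted p = 0.0308), with a median of 0.26.

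Across the 21 alternatives, 6 of the 14 calls held throughout: Abcb6, Abcb9, Abcc4, Abcc6, Abcg5 and Abcg8. All 14 kept their direction.

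**Figure D5:**
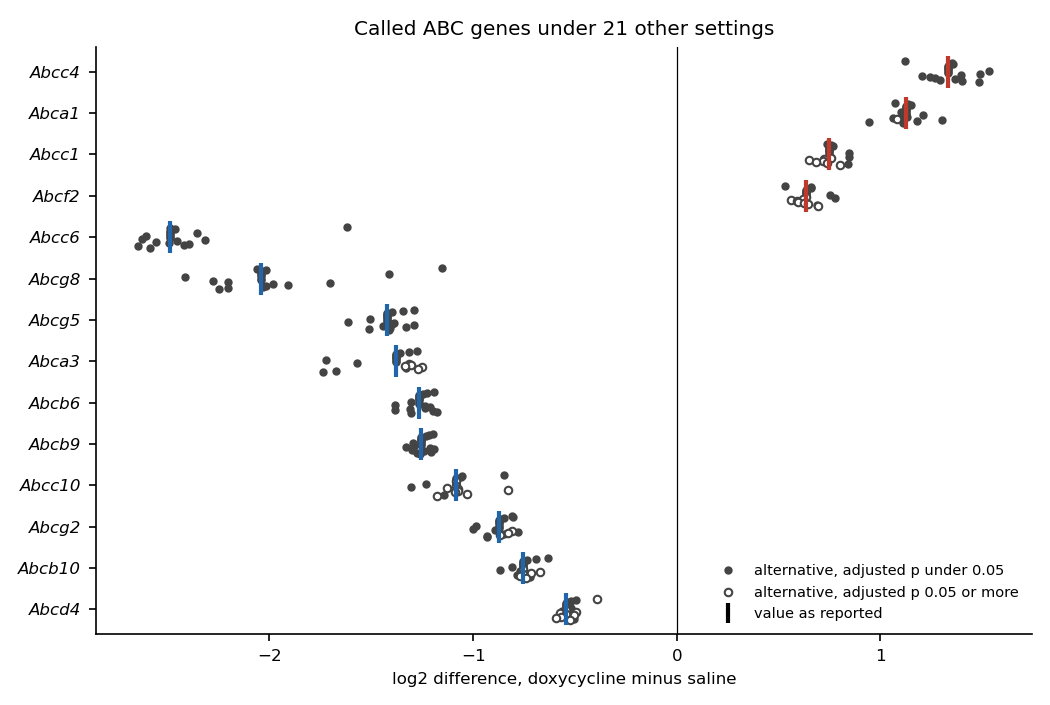
Log2 difference (doxycycline minus saline) of the 14 called ABC genes as reported (coloured bar) and under 21 other settings (points, filled where the adjusted p was under 0.05 and open otherwise). Abcb6, Abcb9, Abcc4, Abcc6, Abcg5 and Abcg8 have filled points only, and no point crosses 0.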

How the data were processed

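Total RNA of 8 ileum samples (4 doxycycline, 4 saline, grouped by the treatment label) was labelled from 200 ng, per the labels' protocols. The deposited scanner files hold spot intensity, background-subtracted per the file headers. Per the submitters' processing notes, the software was Agilent Feature Extraction 10.7.3.1. The deposited value table holds log2 values equal to the scanner values minus a constant per array, in the same direction and without centring of genes (column medians -3.77, -3.92, -3.83 and -3.81 for doxycycline 1 to 4 and -3.97, -3.70, -3.79 and -3.86 for saline 1 to 4). It served as an alternative. The deposited outlier and well-above-background flags were used as given.

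An array has 62976 spots, 59305 of them for 55681 probes and the rest controls. Controls and outlier spots (169 to 259 per array) were dropped, spots of a probe were averaged, and log2 processed intensity was reduced by each array's 75th percentile. None was saturated. A gene was tested where 4 or more of the 8 arrays measured its brightest probe well above background (21342 genes). The test was limma 3.58.1 under R 4.3.3 (lmFit, eBayes, two-sided, Benjamini-Hochberg over all genes tested, threshold 0.05), a procedure tested on simulated data. Second probes come from a fit over 28626 probes. Probe positions are the array's mm9 annotation; exons were not assigned. All 50 members matched a RefSeq gene by accession, with 0 symbols changed. The number of arrays limits the precision.

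Same-numbered arrays did not deviate together (correlations 0.01, -0.04, 0.11 and 0.01), so numbers were not treated as pairs. The members and the gene lists were chosen with earlier results of these data known. Values on every array are given for called members and for a set list of members, other members by counts and ranges, and at most 4 called genes are described per partner list. Of the tested members, 2 enter the counts and medians and are not reported here singly. Alternatives covered background correction, scaling, filters, floor, probe choice, array weights, variance model, replicate block, the deposited table and left-out arrays.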

Additional observations from a re-analysis of the deposited data

Results flagged for a closer look

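Of 75 groups of 4 arrays checked among the tested members, 2 had an array far from the others, and chance alone marks about 1 group in 20. Abca3 on doxycycline array 1 was at 3.70, with the nearest doxycycline array at 2.998, a gap of 0.888 of the group's range. Abcb6 on doxycycline array 1 was at 1.15, with the nearest at 0.71, a gap of 0.853 of the range. In both genes this array lay toward the saline arrays.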

How the results depend on the processing

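Precision is limited by 4 arrays per group, and dim probes by background: the lowest signal well above background was -4.91 to -4.51 on doxycycline arrays and -3.07 to -2.57 on saline arrays, so members near it carry bounds rather than levels. With no filter on dim probes, 22 ABC genes and 11810 of all genes were called lower, the ABC median was -0.58 and that of all genes moved to -0.33, where 35715 genes entered and dim probes read lower on doxycycline arrays. With probes well above background on all arrays the ABC median was -0.47, and with the mean of kept probes it was -0.17. Without the 2 members measured on doxycycline arrays alone, an alternative chosen after seeing the data, it was -0.37. The counts of 4 ABC genes higher and 10 lower could not change there, since neither of the 2 was called. Array weights called 2930 of all genes higher and 3403 lower. With the replicate block 786 of all genes were called higher and 906 lower, and 3 and 8 ABC genes. Without saline arrays 2 and 4, 1026 of all genes were lower. Leaving out each array in turn, ABC genes called higher ranged over 1 to 6, ABC genes called lower over 5 to 12, the ABC median over -0.37 to -0.23, all genes higher over 647 to 1539 and all genes lower over 729 to 1871. The cause of these shifts was not tested.

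Among the members that were not called, Abca5, Abca8a, Abca9, Abcb1a, Abcb1b and Abcb4 changed sign in some alternatives. The others shown singly did not. Abca5 was at 0.0541 with array weights, 0.15 without saline arrays 2 and 4, and -0.36 to 0.14 over the fits that left out each array. Abca8a was at -0.32 with normexp, -0.11 with array weights, -0.15 without saline arrays 2 and 4, and -0.13 to 0.12 with each array left out. Abca9 was at -0.43 with normexp, -0.00711 with a common floor, -0.36 with array weights, -0.46 without saline arrays 2 and 4, and -0.31 to 0.46 with each array left out. Abcb1a was at 0.13 with normexp, 0.0527 with quantile normalization, 0.00649 with median scaling, 0.0259 with array weights, and -0.48 to 0.38 with each array left out. Abcb1b ran over -0.0319 to 0.62 with each array left out. Abcb4 ran over -0.0947 to 0.51 with each array left out and was at -0.0340 without saline arrays 2 and 4.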
